A study of Mus musculus with 6 samples.

Results

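The genes described here encode matricellular proteins and the main scaffold protein of the provisional wound matrix: the tenascins Tnc and Tnn, the thrombospondins Thbs1 and Thbs2, periostin (Postn), Sparc, fibronectin (Fn1) and the CCN proteins Ccn1 and Ccn2. They were chosen by name, as rows whose single symbol in the array annotation was 1 of these 9. All 9 were found among 19938 genes, each with 1 probe set. Transcript levels were measured on 6 Affymetrix mouse gene arrays, with 2 arrays each for intact skin, wounds on day 1 and wounds on day 4 after injury. All animals were males of the inbred strain BALB/c, 5 to 6 weeks old. A wounded mouse carried 2 full-thickness punch wounds of 4 mm on the shaved back, which reached the fascia and spared it, and the 8 mm biopsy held the wound together with skin around it. The labels do not say whether intact skin came from unwounded animals, whether its donors were shaved, or how many animals contributed RNA to an array. They call the replicates biological, so n counts arrays, and the p-values measure the spread between these arrays.

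Matricellular proteins are secreted into the extracellular matrix but act mainly as signals to cells, not as load-bearing fibres. Many are scarce in resting adult tissue and are made again in embryos, tumours and wounds. Fibronectin from plasma and from local cells joins fibrin in the clot to form the provisional matrix over which keratinocytes, fibroblasts and endothelial cells migrate, and tenascins, thrombospondins and CCN proteins modulate how those cells adhere through integrins and other receptors. Biopsies hold many cell types, and in such bulk samples a change in the number of cells of a type and a change in RNA per cell cannot be told apart.

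The deposited values are log2 intensities, so that a difference of 1 is a 2-fold change in signal. Array medians lay between 6.89 and 6.93 and lower quartiles between 5.29 and 5.37, and each of the 9 genes lay above the lower quartile on all 6 arrays. Across genes, which are not independent replicates, the 2 arrays of a group had an r of 0.9967 (intact), 0.9891 (day 1) and 0.9861 (day 4). Epidermal markers had high signal in intact skin, with Krt5 at a mean of 12.64 and Krt10 at 12.50, and the fibroblast marker Dcn at 12.17. A gene is said to rise or fall where the Benjamini-Hochberg adjusted p of limma, over all genes of a comparison, was under 0.05.

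Against intact skin, 7 of the 9 genes rose on day 1 and 6 rose on day 4, and 0 fell on either day. Of all genes tested, 14.7% were called higher and 14.6% lower on day 1, and 14.8% higher and 12.1% lower on day 4. Tnc, Thbs2 and Ccn1 rose at least 2-fold on day 1, as did 4.83% of all genes, and Tnc, Tnn and Thbs2 did so on day 4, as did 3.78% of all genes. The median log2 change over the 9 genes was 0.67 on day 1 and 0.58 on day 4, against −0.04 and −0.03 over all genes. Sparc and Fn1 were called in none of the comparisons. On each day 8 of the 9 genes had both wound arrays above both intact arrays, as did 29% of all genes on day 1 and 30% on day 4. Between the wounds of the 2 days Tnn was higher on day 4 and Thbs1 was lower, where 1.09% of all genes were called higher and 1.14% lower. The arrays of the 2 wound groups did not overlap for 6 of the 9, with 4 higher on day 4 (25.6% of all genes) and 2 lower (22% of all genes).

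**Figure D1:**
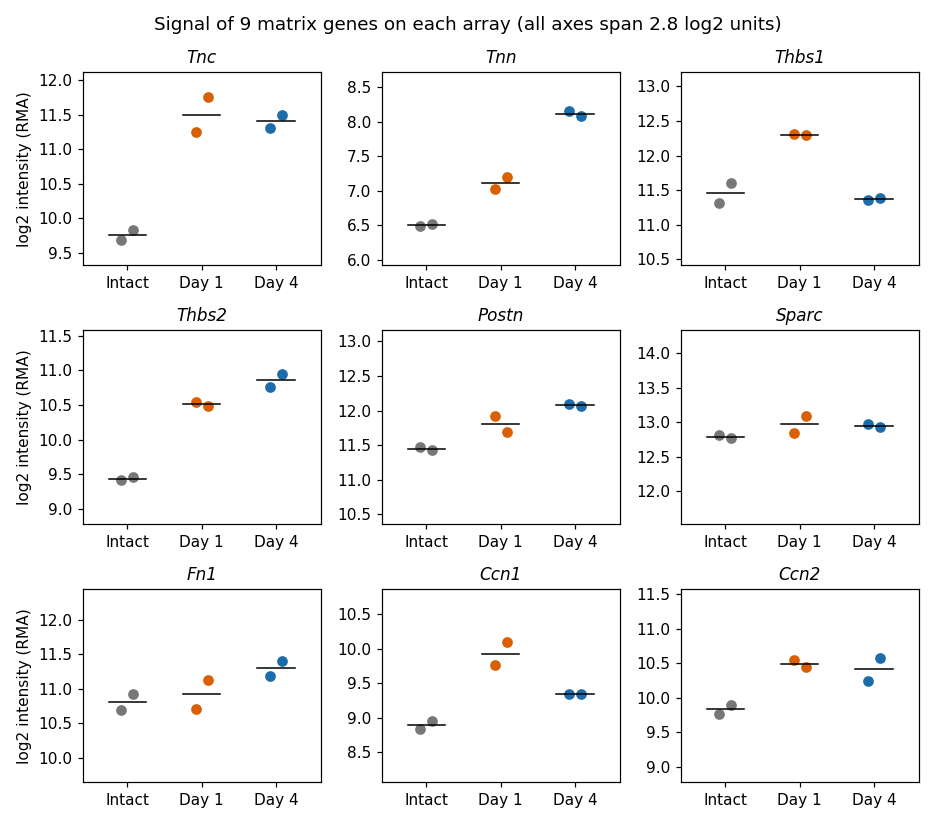
Log2 intensity (vertical axis, RMA values) of each gene on each array, for intact skin, day 1 wounds and day 4 wounds; points are arrays (2 per group) and lines are group means, and every panel spans the same number of log2 units. The points of Tnc, Tnn, Thbs2, Postn, Sparc, Ccn1 and Ccn2 lie above intact skin on both days. Those of Thbs1 do so on day 1 alone and those of Fn1 on day 4 alone. The points of Tnn, Thbs2, Postn and Fn1 are highest on day 4.

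Fibronectin is the glycoprotein on which the provisional matrix is assembled, and cells bind it through an RGD-containing module by way of integrins such as α5β1. Fn1 read 10.69 and 10.93 on the intact arrays, 10.71 and 11.13 on the day 1 arrays, and 11.19 and 11.40 on the day 4 arrays. Day 1 overlapped intact skin, whereas both day 4 arrays lay above it. The day 1 difference was 0.11 (SE 0.16, adjusted p = 0.655), with a 95% interval of −0.28 to 0.50. On day 4 the difference was 0.49 (SE 0.16, 1.4-fold) with an interval of 0.09 to 0.88 that is not adjusted for the number of genes, and its adjusted p of 0.0718 missed the threshold. With only the 4 arrays of these groups in the fit, or without either of the day 1 arrays, that adjusted p was 0.0447. The interval leaves room for a rise of up to 0.88, so these arrays do not show that local Fn1 transcript stayed level.

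Tenascin-C, encoded by Tnc, is a large hexameric glycoprotein that interferes with adhesion to fibronectin and is a known early product of wound edges. Its signal was 9.69 and 9.83 in intact skin, 11.25 and 11.75 in day 1 wounds, and 11.31 and 11.50 in day 4 wounds. All 4 wound arrays stood above both intact arrays, and the wounds of the 2 days overlapped. Tnc was 3.34-fold higher on day 1 (log2 change 1.74, SE 0.17, adjusted p = 7.99e-04) and 3.13-fold higher on day 4 (1.65, SE 0.17, adjusted p = 0.00135). Its day 1 rise exceeded the change of 98.0% of all genes and its day 4 rise that of 98.4%. Between the days the difference was −0.10 (SE 0.17, adjusted p = 0.819), with an interval of −0.50 to 0.31.

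Tenascin-N (also called tenascin-W), encoded by Tnn, is a smaller member of the same family, known from bone, stem cell niches and tumour stroma. Tnn had 6.49 and 6.52 in intact skin, 7.03 and 7.20 in day 1 wounds, and 8.15 and 8.08 in day 4 wounds. The 3 groups did not overlap, and the spread within each was small beside the steps between them. It rose 1.53-fold by day 1 (log2 change 0.61, SE 0.09, adjusted p = 0.0031) and 3.05-fold by day 4 (1.61, SE 0.09, adjusted p = 1.84e-04). The step from day 1 to day 4 was itself called, at 1.00 (SE 0.09, adjusted p = 0.0125), a change above that of 99.7% of all genes. That call between the days was lost when day 1 wound replicate 2 (adjusted p = 0.062), day 4 wound replicate 1 (0.0841) or any 1 of the intact arrays (0.0635 each) was left out, while the difference itself stayed between 0.92 and 1.09. Both calls against intact skin held without any 1 of the arrays.

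Thrombospondin-1 and thrombospondin-2 are trimeric relatives that bind the receptors CD36 and CD47 and restrain the growth of vessels, and thrombospondin-1 also releases latent TGF-beta. Thbs1 read 11.31 and 11.60 in intact skin, 12.31 and 12.29 in day 1 wounds, and 11.35 and 11.39 in day 4 wounds. The day 1 arrays lay above the rest, and the day 4 arrays fell within the intact range. Thbs1 rose 1.80-fold on day 1 (log2 change 0.85, SE 0.11, adjusted p = 0.00207). On day 4 it differed from intact skin by −0.09 (SE 0.11, adjusted p = 0.598), with an interval of −0.34 to 0.17. From day 1 to day 4 it fell by 0.93 (SE 0.11, adjusted p = 0.0223), a change larger in the downward direction than that of all but 0.702% of genes. That call did not outlast the loss of any 1 of the 6 arrays: the adjusted p was then between 0.0559 and 0.142, and the difference between −0.95 and −0.91.

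Thbs2 stood at 9.41 and 9.46 in intact skin, at 10.54 and 10.48 in day 1 wounds, and at 10.76 and 10.95 in day 4 wounds. Every wound array lay above intact skin, and those of day 4 above those of day 1. It rose 2.11-fold on day 1 (log2 change 1.08, SE 0.09, adjusted p = 4.62e-04) and 2.68-fold on day 4 (1.42, SE 0.09, adjusted p = 2.93e-04). The difference between the days, 0.35 (SE 0.09, adjusted p = 0.11), did not pass, and its interval ran from 0.13 to 0.56 before adjustment. So the 2 thrombospondins were both called higher on day 1, and on day 4 Thbs2 was called and Thbs1 was not. Whether the 2 genes differ from each other was not tested.

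Periostin binds integrins, collagen and tenascin-C and takes part in collagen crosslinking, and in skin it is a product of fibroblasts. Postn read 11.47 and 11.43 in intact skin, 11.92 and 11.69 in day 1 wounds, and 12.09 and 12.06 in day 4 wounds. The groups did not overlap and stood in the order intact, day 1, day 4. Its rise was 1.28-fold on day 1 (log2 change 0.36, SE 0.10, adjusted p = 0.0332) and 1.54-fold on day 4 (0.63, SE 0.10, adjusted p = 0.00507). The day 4 call held without any 1 of the arrays (highest adjusted p 0.0422). The day 1 call was lost without day 1 wound replicate 1, where the change was 0.24 and the adjusted p 0.12, without intact replicate 1 (0.118) or 2 (0.14), and without either of the day 4 arrays or with only the 4 arrays of the comparison (0.0525 each). The step between the days was 0.27 (adjusted p = 0.197).

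Sparc, or osteonectin, is a collagen-binding glycoprotein of remodelling tissue. Its signal was 12.81 and 12.77 in intact skin, 12.85 and 13.09 in day 1 wounds, and 12.97 and 12.93 in day 4 wounds. The wound arrays all lay above the intact arrays, by less than the steps seen for the tenascins. The differences of 0.18 on day 1 (SE 0.10, adjusted p = 0.216) and 0.16 on day 4 (SE 0.10, adjusted p = 0.267) did not pass, and their intervals ran from −0.05 to 0.41 and from −0.07 to 0.39. The day 1 difference was 0.30 without day 1 wound replicate 1 and 0.06 without day 1 wound replicate 2. Between the days the difference was −0.02 (adjusted p = 0.943), with an interval of −0.25 to 0.21.

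CCN1 (formerly Cyr61) and CCN2 (formerly Ctgf) are secreted proteins that bind integrins and heparan sulfate, and their genes are textbook targets of the YAP-TEAD transcription complex, of serum response factor and, for Ccn2, of TGF-beta. Ccn1 read 8.84 and 8.96 in intact skin, 9.76 and 10.09 in day 1 wounds, and 9.34 and 9.35 in day 4 wounds. The groups did not overlap, with day 1 highest and day 4 between day 1 and intact skin. Ccn1 was 2.03-fold higher on day 1 (log2 change 1.03, SE 0.12, adjusted p = 0.00153) and 1.36-fold higher on day 4 (0.45, SE 0.12, adjusted p = 0.0367). The day 4 call was lost without day 4 wound replicate 1 (adjusted p = 0.107) or 2 (0.13) and without intact replicate 1 (0.182) or 2 (0.0971). The drop of 0.58 from day 1 to day 4 had an adjusted p of 0.0693, and one of 0.0494 after cyclic loess normalization.

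Ccn2 had 9.77 and 9.89 in intact skin, 10.54 and 10.45 in day 1 wounds, and 10.24 and 10.58 in day 4 wounds. Wound arrays of either day lay above intact skin and overlapped each other. It was 1.59-fold higher on day 1 (log2 change 0.67, SE 0.12, adjusted p = 0.00909) and 1.5-fold higher on day 4 (0.58, SE 0.12, adjusted p = 0.0174), and the difference between the days was −0.09 (adjusted p = 0.772; interval −0.38 to 0.21). The day 1 call was lost without day 1 wound replicate 1 (adjusted p = 0.0523) or intact replicate 1 (0.0688). The day 4 call was lost without day 4 wound replicate 2 (0.0569), intact replicate 1 (0.11) or intact replicate 2 (0.0646).

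**Figure D2:**
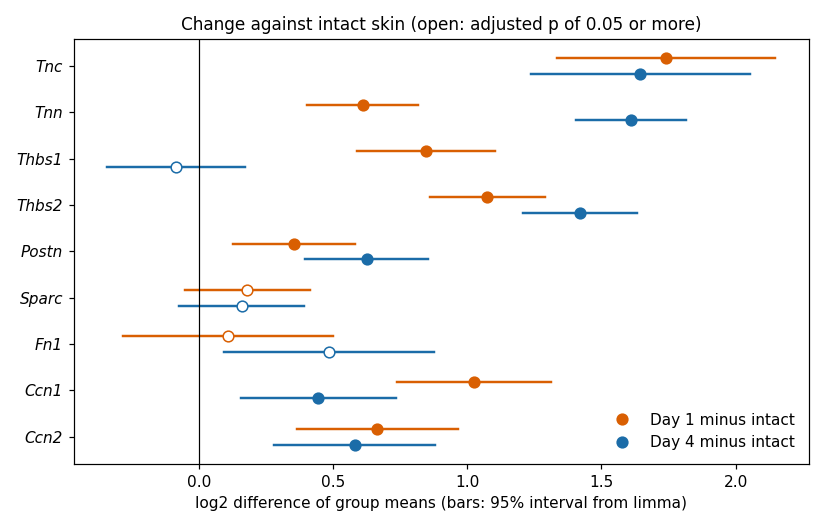
Log2 difference of group means (horizontal axis) of each gene for day 1 wounds and day 4 wounds against intact skin, with 95% intervals from limma that are not adjusted for the number of genes; filled points have an adjusted p under 0.05. Tnc and Thbs2 lie above 1 on both days, Tnn moves from 0.61 to 1.61, and Thbs1 moves from 0.85 to −0.09.

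The 2 comparisons against intact skin share the intact arrays, so their values are set side by side and not correlated. By the distance between mean-centred profiles over the 6 arrays, the nearest pair among the 9 genes was Postn and Ccn2 (0.49), followed by Sparc and Fn1 (0.51), which moved least. Thbs1 and Ccn1, whose means were highest on day 1, lay 0.61 apart, and Tnn and Thbs2, whose means were highest on day 4, lay 0.72 apart. Other pairs lay about as near, among them Postn and Sparc (0.575), Postn and Fn1 (0.583) and Ccn1 and Ccn2 (0.636). The means of Tnc, Ccn2 and Sparc were also highest on day 1, and those of Postn and Fn1 on day 4. Outside the set, the profile nearest to Tnc was that of the glucose carrier gene Slc2a1 (distance 0.19), followed by the leukocyte tetraspanin gene Cd37 (0.19). Nearest to Tnn were Srpx2 (0.35) and the lysosomal hexosaminidase gene Hexa (0.42), and nearest to Thbs2 were H2-M3 (0.15) and Naaa (0.17). Thbs1 was followed most closely by Gnal (0.15) and Clic5 (0.25), and Ccn1 by Adgrg3 (0.14) and Adcy4 (0.16). Postn lay nearest to the basal keratin gene Krt14 (0.12) and to Dmkn (0.14), Ccn2 to Grap2 (0.08) and Nfatc1 (0.10), Sparc to Tmem147 (0.06) and Gfer (0.06), and Fn1 to Mrgprf (0.06) and Greb1l (0.09). These distances rest on 6 arrays in 3 groups and describe likeness of profile alone, and small ones are common for genes that hardly move.

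Promoter sequence from RefSeq (assembly GRCm38.p6, windows from 250 bases before to 50 after an annotated start) was matched for 6 of the 9 genes: Tnc, Tnn, Thbs2, Postn, Sparc and Ccn1. The 4 genes that passed at 2-fold or more on either day are shown, each as the 120 bases before its outermost start in the RefSeq table, 5′ to 3′ on the gene's strand. All 4 lie on the minus strand: Tnc at chr4:64047016-64047135, Tnn at chr1:160153693-160153812, Thbs2 at chr17:14694263-14694382 and Ccn1 at chr3:145649986-145650105. Capitals mark the TEAD letters GGAATG, or their reverse complement, in Tnn and Ccn1, and the short SMAD letters CAGAC, or their reverse complement, in Thbs2; the stretch of Tnc holds neither.
Tnc: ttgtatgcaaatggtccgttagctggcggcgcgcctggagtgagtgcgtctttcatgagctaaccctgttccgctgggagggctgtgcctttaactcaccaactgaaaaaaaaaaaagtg
Tnn: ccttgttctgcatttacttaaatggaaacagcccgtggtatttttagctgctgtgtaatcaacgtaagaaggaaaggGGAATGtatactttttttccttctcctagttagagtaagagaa
Thbs2: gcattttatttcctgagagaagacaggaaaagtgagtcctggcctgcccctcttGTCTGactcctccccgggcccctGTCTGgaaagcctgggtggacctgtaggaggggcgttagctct
Ccn1: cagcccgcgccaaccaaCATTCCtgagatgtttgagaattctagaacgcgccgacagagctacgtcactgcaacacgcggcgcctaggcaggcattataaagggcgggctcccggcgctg

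Both strands were searched. The 6 genes had 8 windows, and a gene was counted if any of its windows matched, whereas the percentages are shares of single windows. The TEAD letters stood in the windows of 2 of the 6 genes, Tnn and Ccn1, and in 14.7% of all 32851 promoter windows. In Ccn1 they ran from base −103 to −98 before the start on the opposite strand, and in Tnn from −160 to −155 before an inner start on the gene's own strand. The short SMAD letters stood in windows of 5 of the 6 genes and in 49.6% of all windows, and Thbs2 had 2 matches before its start, shown above. The longer SMAD palindrome GTCTAGAC and the AP-1 letters TGANTCA, with N any base, were found in 0 of the 6, and in 0.213% and 7.81% of all windows. Such matches are descriptions of letters and no evidence of binding.

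Of 17 other tenascins, thrombospondins, SPARC-family, CCN-family and Tgfbi genes, 6 rose and 1 fell on day 1, and 9 rose and 0 fell on day 4, with median changes of 0.26 and 0.39. Thbs4, a pentameric thrombospondin, rose 3.32-fold on day 1 (adjusted p = 2.49e-04) and 2.64-fold on day 4 (adjusted p = 7.53e-04). Tgfbi, an integrin-binding relative of periostin, rose 2.59-fold and 2.22-fold, and Fstl1, a follistatin-like secreted protein of the SPARC family, 1.82-fold and 2.34-fold. Tnr, the tenascin of the nervous system, fell by 0.27 on day 1 (adjusted p = 0.0385). That call was lost without any 1 of the arrays, with only the arrays compared and under quantile or cyclic loess normalization. The call was also lost with a trend in the prior. It was absent with the dimmest 30% of genes removed, but a gene that this filter removes cannot be called. Tnr read 5.42 to 5.76, near the lower quartiles of the arrays (5.29 to 5.37). The day 1 count of 7 called genes was 2 without intact replicate 1 and 3 without intact replicate 2.

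Of 20 other genes of provisional or wound matrix, 12 rose and 0 fell on day 1, and 11 rose and 1 fell on day 4, with medians of 0.44 and 0.57. The hyaluronan-binding protein gene Tnfaip6 rose 9.99-fold on day 1 (adjusted p = 1.85e-04) and 5.19-fold on day 4 (adjusted p = 8.62e-04). Emilin2, an elastic-fibre glycoprotein, was 4.01-fold higher on day 1 and 2.93-fold on day 4. Efemp1, a fibulin, was 2.17-fold higher on day 1 and 1.97-fold on day 4, and the fibulin Fbln2 1.78-fold and 2.53-fold. Hapln3, a hyaluronan and proteoglycan link protein, fell by 0.36 on day 4 (adjusted p = 0.0304). With the dimmest 30% of genes removed there was no call of Hapln3, but a gene that this filter removes cannot be called. The fall was not called after cyclic loess. Nor was it called without day 4 wound replicate 2, intact replicate 1 or intact replicate 2. The fibrinogen chain genes, whose plasma proteins come from liver, had differences of −0.08 (Fga), −0.05 (Fgb) and −0.11 (Fgg) on day 1. Their adjusted p were 0.707, 0.753 and 0.336. Fgg was among the 2 genes of this list that lay under the lower quartile on every array. Fgb read 5.25 to 5.42, on both sides of the lower quartiles, and Fga 5.38 to 5.75, above them. Whether these transcripts were detected was not tested, so the differences do not show that they stayed level.

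Among 21 receptors for these proteins, 13 rose and 2 fell on day 1, and 15 rose and 1 fell on day 4, with medians of 0.63 and 0.44. Itga5, the fibronectin-binding integrin chain, rose 5.1-fold on day 1 (adjusted p = 2.69e-04) and 3.2-fold on day 4 (adjusted p = 0.00118). The thrombospondin receptor gene Cd47 rose 2.25-fold on day 1 and 2.01-fold on day 4, and the hyaluronan receptor gene Cd44 1.93-fold and 1.53-fold. Itga4, an integrin chain that binds fibronectin and is found on leukocytes, was 3.07-fold higher on day 1 and 3.92-fold higher on day 4. The syndecan gene Sdc1 fell by 0.83 on day 1 and by 0.57 on day 4, and the integrin chain Itga8 fell by 0.55 on day 1 (adjusted p = 0.0115, 0.0473 and 0.0411). Both day 1 falls were lost without day 1 wound replicate 2 or either of the intact arrays, and 1 of them after cyclic loess. The day 4 fall of Sdc1 was kept without day 4 wound replicate 1 and lost without any 1 of the other 5 arrays or with only the arrays compared. From day 1 to day 4 the integrin chain Itgb6 fell by 0.66 (adjusted p = 0.0303) and the syndecan Sdc4 by 0.70 (adjusted p = 0.0361). These falls followed rises against intact skin on day 1, of 1.03 for Itgb6 (adjusted p = 5.25e-04) and 0.875 for Sdc4 (adjusted p = 0.00165). On day 4 Itgb6 was still called above intact skin (0.375, adjusted p = 0.024), and Sdc4 was not (0.175, adjusted p = 0.259). The day 1 count of 15 called genes was 9 without day 1 wound replicate 2 or intact replicate 1. The day 4 count of 16 was 9 without day 4 wound replicate 2 or intact replicate 2 and 8 without intact replicate 1, and the 2 calls between the days were lost without any 1 of the arrays.

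TGF-beta signalling and YAP-TEAD are upstream routes through which several of the 9 genes are known to be switched on. Of 15 TGF-beta ligands, receptors and targets, 8 rose and 2 fell on day 1, and 7 rose and 2 fell on day 4, with medians of 0.33 and 0.45. The receptor gene Tgfbr2 rose 2.08-fold on day 1 and 2.01-fold on day 4, the activin subunit gene Inhba 2.03-fold and 1.51-fold, and Tgfb3 1.4-fold and 1.9-fold. Smad7, an inhibitor of the pathway that is itself a target of it, fell by 1.13 on day 1 (adjusted p = 0.00225) and by 1.18 on day 4 (adjusted p = 0.00249), and Pmepa1, another feedback inhibitor, fell by 0.47 and 0.38 (adjusted p = 0.0151 and 0.0354). Of these 2 falls 1 was left without either of the day 1 arrays or either of the intact arrays on day 1, and without any 1 of the arrays other than day 4 wound replicate 1 on day 4. Smad3, a signal transducer, was higher than in intact skin on day 1 (0.445, adjusted p = 0.0179) and differed from it by −0.15 on day 4 (adjusted p = 0.31). From day 1 to day 4 it was lower by a log2 change of −0.60 (adjusted p = 0.0442), the 1 call of this list between the days. The day 1 count of 10 called genes was 5 without day 1 wound replicate 2 or intact replicate 1, the day 4 count of 9 was 5 without intact replicate 1, and the call of Smad3 was lost without any 1 of the arrays.

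The 18 YAP-TEAD targets other than Ccn1 and Ccn2 were called in both directions, 4 up and 4 down on day 1 and 5 up and 3 down on day 4, with medians of −0.06 and −0.10 that lay near those of all genes. Ankrd1, a nuclear ankyrin-repeat protein also induced in stressed muscle, rose 21.9-fold on day 1, from 5.54 and 5.83 in intact skin to 9.93 and 10.35 (adjusted p = 4.09e-04). On day 4 it read 7.20 and 8.34, a 4.24-fold rise (adjusted p = 0.00788) and from day 1 it fell by 2.37 (adjusted p = 0.0361), a call kept without day 4 wound replicate 2 and lost without any 1 of the other 5 arrays. F3, the tissue factor gene, rose 2.15-fold on day 1 and 1.64-fold on day 4, Myof, which encodes a membrane repair protein, 1.57-fold and 1.73-fold, and Gadd45b, a stress gene, 1.58-fold and 1.51-fold. The receptor kinase gene Axl was 1.27-fold higher on day 4. The phosphatase gene Ptpn14 was lower by −0.83 and −0.52, and Crim1 by −0.38 and −0.41, with Nt5e lower on day 1 (−0.46). The day 1 count of 8 called genes was 5 without intact replicate 1, and the day 4 count of 8 was 3 without day 4 wound replicate 2, 2 without intact replicate 1 and 4 without intact replicate 2.

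Enzymes that assemble, crosslink or cut these proteins rose in most cases. Of 17 measured, 12 rose on day 1 and 13 on day 4, and 0 fell against intact skin, with medians of 1.29 and 0.87. The collagenase gene Mmp13 rose 17.6-fold on day 1 (adjusted p = 7.59e-05) and 9.88-fold on day 4, and the gelatinase gene Mmp9 9.95-fold and 6.7-fold. The cathepsin gene Ctsk was 2.45-fold higher on day 1 and 3.28-fold higher on day 4. The protease gene Adamts4 was 4.6-fold higher on day 1 and then lower by −1.24 from day 1 to day 4 (adjusted p = 0.0199). Adamts1, a protease of proteoglycans, and the transglutaminase gene Tgm2 were also lower on day 4 than on day 1, by −0.61 and −0.96 (adjusted p = 0.0436 and 0.0496). Against intact skin Adamts1 was called higher on day 1 (2.79-fold) and day 4 (1.83-fold), as was Tgm2 (3.41-fold and 1.76-fold). Adamts4 was also still called above intact skin on day 4 (1.95-fold). Those 3 calls between the days went to 1 without day 1 wound replicate 1 or day 4 wound replicate 2 and to 0 without any of the other 4 arrays.

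**Figure D3:**
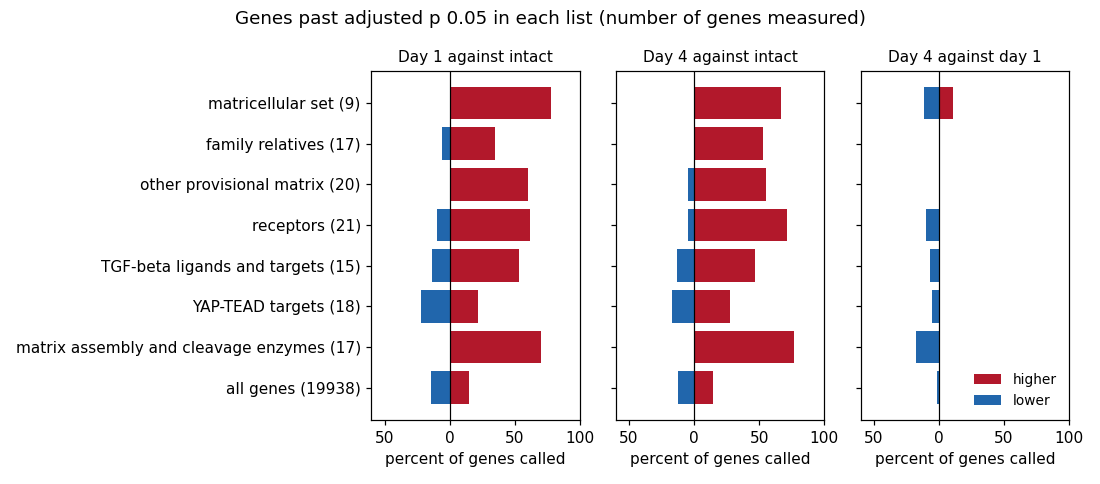
Percent of measured genes with an adjusted p under 0.05 (horizontal axis; higher to the right, lower to the left of 0) in the 9 genes, the 6 related lists and all 19938 genes, for the 3 comparisons; numbers of genes stand in brackets. The 9 genes and the other provisional matrix, receptor and enzyme lists have most of their genes to the right on both days, and the YAP-TEAD targets fall on both sides.

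**Figure D4:**
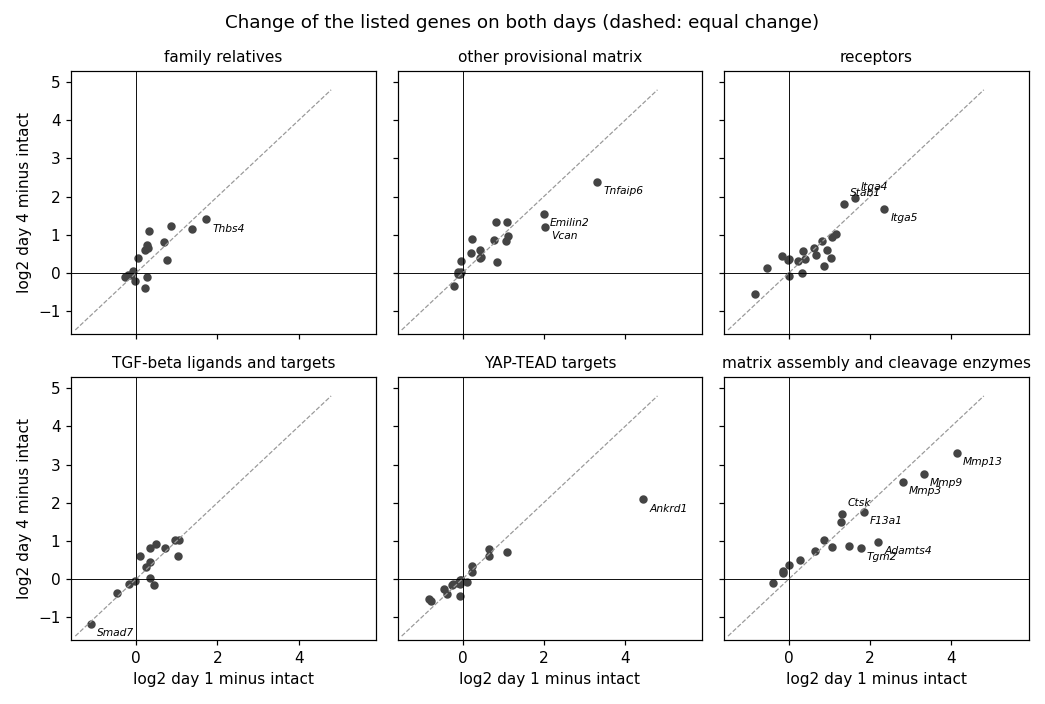
Log2 change of each listed gene on day 1 (horizontal axis) and day 4 (vertical axis) against intact skin, in 6 panels, with equal change on the dashed line; the 2 axes share the intact arrays. Ankrd1, at 4.46 and 2.09, and Adamts4, at 2.20 and 0.97, lie below the line.

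Markers of several cell types moved in the same biopsies, and their part in these results was not tested. Of 8 fibroblast markers 5 rose on day 1 and 6 on day 4, and their summed linear intensity was 13670 to 14450 in intact skin, 17180 to 21770 on day 1 and 22280 to 23000 on day 4. All 7 macrophage markers rose on both days, from sums of 2416 to 3083 in intact skin to 9299 to 10820 on day 1 and 10040 to 10610 on day 4, and all 7 neutrophil markers rose on both days too, from 422.7 to 504 up to 11930 to 15840 on day 1 and 6076 to 7210 on day 4. Of 7 endothelial markers 5 rose on day 1 and 6 on day 4, with sums of 1885 to 2024 in intact skin, 3289 to 3590 on day 1 and 2786 to 3412 on day 4. Of 8 markers of smooth muscle, pericytes and myofibroblasts 3 rose and 1 fell on day 1, and 5 rose and 1 fell on day 4, with Acta2, the actin of myofibroblasts, at −0.02 (adjusted p = 0.874) and then 0.28 higher (adjusted p = 0.0416). The sums were 4628 to 5049, 6588 to 6992 and 6485 to 7179 in the 3 groups. The 3 rises on day 1 were those of Des (log2 change 1.15), Pdgfrb (0.96) and Rgs5 (0.535), while Tagln, Myh11 and Cnn1 were not called. Des had the highest mean signal of this list on day 1 (11.455) and also stands in the skeletal muscle list, so the sums of both lists share it. Of 8 skeletal muscle markers 7 rose on day 1 and 4 on day 4, with sums of 13060 to 13270, 22060 to 22350 and 16010 to 18680. Of 6 platelet markers 2 rose on day 1, the chemokine genes Pf4 and Ppbp, and 2 fell, Gp5 and Treml1. Pf4 and Ppbp rose on day 4 and Gp5 fell, while the platelet integrin chain Itga2b was at −0.01 and −0.08 and Gp9 at −0.06 and −0.16, none of which passed. The sums of the platelet list were 845.2 to 1007, 3407 to 5422 and 2574 to 3546. Of 6 epidermal markers 3 rose on each day (24410 to 25220, 28870 to 30400 and 30890 to 32850), and of 8 hair follicle markers 7 fell on day 1 and 4 on day 4 (25930 to 26250, 668.1 to 4254 and 816.3 to 10890). Of 3 Schwann cell markers 2 rose on each day (397.7 to 398.9, 508.9 to 539.7 and 489.8 to 549), and of 6 adipocyte markers 2 fell on each day (8479 to 8607, 7268 to 8232 and 7159 to 8001). No marker list held a gene under the lower quartile on all 6 arrays.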

How the data were processed

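Total RNA with integrity numbers from 7.7 to 9.1, per the labels' protocols, was hybridised to Affymetrix arrays. The authors deposited log2 intensities, for which the submitters' processing notes name RMA without a version; RMA corrects background, brings arrays to a common distribution and summarises probes. Of 35556 probe sets, 21789 carried 1 symbol, 1621 several and 12146 none in the annotation; the probe set with the highest mean was kept, which gave 19938 genes. RefSeq identifiers of all 9 genes carried the same symbol. Groups were fitted together with limma 3.58.1 in R 4.3.3 (lmFit, eBayes; 3 residual and 3.4 prior degrees of freedom), with two-sided p-values adjusted by Benjamini-Hochberg over all genes. The 6 arrays limit the precision. The genes, lists, tests and naming rule were chosen with earlier results of these data known. Named genes of a list were up to 3 with the smallest p per comparison plus those called against its median. Chosen after their values were seen were the fibrinogen chains, the named smooth muscle, pericyte and myofibroblast markers, the platelet markers and Ptpn14, Crim1 and Nt5e. Of marker lists, Krt5, Krt10 and Dcn were among the 2 brightest. Of 195 list entries 182 were measured, and 4 genes stood in more than 1 list. Lists were described by counts and medians and not tested. Alternatives were other scalings, priors, filters, probe set rules, a replicate block and leaving out each array. Protein sequences were not used here, and 1 gene of the YAP-TEAD list that the naming rule gives is not reported here.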

Additional observations from a re-analysis of the deposited data

Results flagged for a closer look

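The wound effect differed between day 4 and day 1, by the test of that difference, for Tnn (1.00, adjusted p = 0.0125) and Thbs1 (−0.93, adjusted p = 0.0223) among the 9 genes. It also differed for 7 genes of the related lists, all lower on day 4 than on day 1, with adjusted p from 0.0199 to 0.0496. They were the proteases Adamts4 (−1.24) and Adamts1 (−0.61), the integrin chain Itgb6 (−0.66), the syndecan Sdc4 (−0.70), Ankrd1 (−2.37), the transducer Smad3 (−0.60) and the transglutaminase Tgm2 (−0.96). Each of the 7 was called higher on day 1 than in intact skin. Of all genes, 1.09% were called higher and 1.14% lower on day 4 than on day 1. Every call between the days named here was lost without at least 1 of the arrays, as given above. Groups of 2 arrays are too small to look for single arrays that stand apart.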

How the results depend on the processing

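Of 405 values of the 9 genes under alternatives, 366 kept their direction and side of the threshold. The count called was 5 to 7 on day 1 (7 with all arrays) and 4 to 7 on day 4 (6) when arrays were left out in turn, where a lone array is assumed to vary like the other groups, and 0 to 1 between the days (2), which also fell to 0 with only the arrays of the groups compared. Signs turned, in values that were not called, for Sparc between the days under quantile normalization (0.0092), and with an array left out for Fn1 on day 1 (−0.10 to 0.32), Thbs1 on day 4 (−0.23 to 0.06), and between the days for Tnc (−0.345 to 0.155), Sparc (−0.14 to 0.10) and Ccn2 (−0.255 to 0.085). No other alternative changed these 3 counts by more than 1 gene. Replicate numbers are not said to pair arrays. Deviations of same-numbered arrays correlated at 0.6853 between the wound groups and at 0.0139 and 0.0227 with intact skin. With the replicate block 7, 7 and 2 genes were called, Fn1 on day 4 being added (0.485, adjusted p = 0.0125), and 5 genes instead of 0 of other provisional matrix were called between the days. The block also ended the day 1 fall of Tnr and 1 of the 2 day 1 falls among receptors. Signal was not tested against background.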
